A study of Mus musculus with 3 samples.

Results

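The 51 genes described here encode the lysosome and the proton pump that acidifies it. They comprise 8 proteins of the lysosomal membrane, 24 soluble proteins of its interior, 16 subunits and accessory proteins of the vacuolar ATPase (V-ATPase) and 3 transcription factors of the MiT/TFE family. The members were listed by function and name, and cathepsins were not included. All 51 were among the 22238 genes listed in every library. All 51 also exceeded 3 TPM (a transcript abundance corrected for length and depth) in at least 1 library, the level taken here as active expression, so that no member was lost to the filter on low values. In BM-Mono 50 of them were above this level, and the exception was Atp6v0d2.

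Lysosomes are acidic organelles in which material taken up by endocytosis and phagocytosis, or delivered by autophagy, is broken down. In the V-ATPase, the cytosolic V1 sector hydrolyses ATP and the V0 sector moves protons across the membrane, and the soluble hydrolases work at the acid pH that results. TFEB, TFE3 and MITF bind short DNA elements in front of many lysosomal genes, and are kept in the cytoplasm when the kinase complex mTORC1 is active on the lysosomal surface. In phagocytes of the inflamed central nervous system (CNS), lysosomes digest engulfed myelin and process antigen for MHC class II.

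RNA-Seq was performed on monocytes of the bone marrow (BM-Mono), monocytes of the spinal cord (SC-Mono) and monocyte-derived antigen-presenting cells of the spinal cord (SC-APC) during experimental autoimmune encephalomyelitis (EAE), a murine model of multiple sclerosis, to follow what monocytes express before and after they enter the CNS. All cells came from female wild-type C57BL/6J mice aged 10 to 12 weeks that had received MOG peptide in complete Freund's adjuvant and 250 ng of pertussis toxin, and were sorted at days 14 to 15, so that no library represents cells of unimmunized mice. SC-Mono (CD45+ CD11b+ CD64+ Ly6Chi Ly6G-) and SC-APC (the same gate with low or no Ly6C) were each pooled from 18 mice in 3 experiments, and BM-Mono (CD45+ CD11b+ Ly6Chi Ly6G- CD11c-) from 13 mice in 2 experiments. Spinal cords were digested with collagenase and DNase and run on a Percoll gradient, whereas bone marrow was flushed and enriched with a monocyte isolation kit. In comparisons with BM-Mono, tissue and handling thus cannot be told apart. GEO's source name for the SC-APC sample gives the bone marrow as origin, whereas its title and tissue label give the spinal cord, which was followed here.

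Each population is 1 pooled library, so no difference below has a replicate check and no test of the populations was possible. The estimated reads summed to between 27283795 and 33280643 per library. Levels are given as TPM rescaled to the same sum over the 22238 common genes. Changes are given as log2 fold changes of reads divided by size factors, with a 98% interval. The size factors are medians of ratios over genes with reads in all 3 libraries. A value of 0 is therefore not the median of the active genes, which is given with each comparison. A gene was called higher or lower when its interval lay beyond a 2-fold change. These intervals reflect the error of counting alone, and reads copied by PCR do not stand for separate molecules. In such bulk samples, fewer cells that express a gene and less RNA of it per cell cannot be told apart. The SC-APC library was quantified on fewer genes (22242, against 54432 in each monocyte library), and its effective lengths differ from those of SC-Mono by over 1.5 times for 8.63% of active genes. The 5 monocyte markers summed to 9854 TPM in BM-Mono, 8156 in SC-Mono and 2110 in SC-APC, and the markers of macrophages and APCs summed to 517, 4601 and 10997 TPM. The 9 microglia markers summed to 13.9, 164 and 434 TPM, with Sall1 and Slc2a5 at 0 reads in BM-Mono. The 6 markers of CNS-associated macrophages summed to 15.7, 36.8 and 51.1 TPM. Of the 4 active in SC-Mono against BM-Mono, 3 had log2 fold changes above 0 and 2 were called higher. Lyve1, another of these markers, was at 0, 2 and 0 reads. Markers of dividing cells (509, 35.8 and 39.7 TPM) and of progenitor granules (651, 64.9 and 23.2 TPM) were highest in BM-Mono, and those of neutrophils summed to 289, 51.2 and 216 TPM. The part of these other cells in the differences reported below was not tested.

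Promoters of the members were searched on both strands for the elements that MiT/TFE factors bind, in RefSeq windows of 300 bases (250 before and 50 after a gene's start, GRCm38.p6). The table holds 55 such windows for 44 of the 51 members, and 7 of these have more than 1 window because they have more than 1 start. A gene was counted when any of its windows held the element. The members without a window are Asah1, Atp6v0d2, Atp6v1b2, Atp6v1c1, Atp6v1g1, Atp6v1h and Npc1. The E-box core CACGTG occurred in 11 of the 44 genes (25%), against 8.09% of all genes in the table and 12.1% of the active ones. The M-box TCATGTGA occurred in 6 (13.6%, against 1.15% of all and 1.0% of active genes), and the extended E-box TCACGTGA, which contains the core, also in 6 (13.6%, against 1.12% and 2.40%). The longer CLEAR element, which is the extended E-box with a G before it and a C after it, was found in 1 member, Cln3 (2.27%, against 0.370% of all and 0.893% of active genes). These matches describe letters in a window and say nothing of binding. Printed in full, 5′ to 3′ on the strand of the gene and with the elements in capitals, are a window of Cln3, because it alone holds the CLEAR element, and windows of Gla and Acp5, picked after their values were seen, because they belong to the most changed members that hold an element. The window of Cln3 lies at chr7:126583187-126583486 (minus strand), Gla at chrX:134600956-134601255 (minus strand) and Acp5 at chr9:22130549-22130848 (minus strand). For Cln3 and Acp5 this is the window of a start inside the annotated gene, and the windows at the gene's 5′ end, chr7:126585768-126586067 for Cln3 and chr9:22135697-22135996 for Acp5, hold none of these elements.
Cln3: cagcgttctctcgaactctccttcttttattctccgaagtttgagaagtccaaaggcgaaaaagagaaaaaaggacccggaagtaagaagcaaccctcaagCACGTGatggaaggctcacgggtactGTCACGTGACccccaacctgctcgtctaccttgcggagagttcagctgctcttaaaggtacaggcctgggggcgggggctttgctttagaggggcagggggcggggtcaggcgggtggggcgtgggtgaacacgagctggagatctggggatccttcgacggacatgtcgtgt
Gla: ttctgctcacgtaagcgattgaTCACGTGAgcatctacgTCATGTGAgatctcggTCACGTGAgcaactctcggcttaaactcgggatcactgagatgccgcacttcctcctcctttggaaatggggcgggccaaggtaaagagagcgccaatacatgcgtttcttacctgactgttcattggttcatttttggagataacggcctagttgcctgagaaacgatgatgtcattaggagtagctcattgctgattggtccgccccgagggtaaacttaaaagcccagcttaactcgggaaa
Acp5: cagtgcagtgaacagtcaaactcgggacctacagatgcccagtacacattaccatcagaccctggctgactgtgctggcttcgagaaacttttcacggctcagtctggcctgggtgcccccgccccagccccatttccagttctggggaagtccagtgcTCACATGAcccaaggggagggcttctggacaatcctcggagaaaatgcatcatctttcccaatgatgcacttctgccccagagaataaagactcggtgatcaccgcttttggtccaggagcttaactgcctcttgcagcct

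In Gla, 2 extended E-boxes and an M-box lay within a stretch whose elements began 228, 211 and 195 bases before the start. In Acp5 a single M-box, written on the other strand, began 91 bases before the start, and the CLEAR element of Cln3 held an extended E-box that began 122 bases before it. The other 8 members with an extended E-box or M-box are shown by 40 bases around the element, since these are the letters in which they resemble one another. The first 4 hold the extended E-box and the last 4 the M-box, which Tpp1 holds in 2 copies, the other one being in lower case and on the other strand. Of the 3 windows of Atp6v0c, 1 holds the M-box. The 1 window of Atp6v0e, chr17:26676146-26676445, is also that of a start inside the annotated gene (chr17:26663231-26699647).
Mcoln1, chr8:3500457-3500496, plus strand: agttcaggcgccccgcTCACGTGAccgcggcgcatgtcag
Atp6v0d1, chr8:105566045-105566084, minus strand: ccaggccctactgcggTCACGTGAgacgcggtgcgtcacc
Atp6v0e, chr17:26676382-26676421, plus strand: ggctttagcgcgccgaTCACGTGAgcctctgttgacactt
Atp6v1a, chr16:44139368-44139407, minus strand: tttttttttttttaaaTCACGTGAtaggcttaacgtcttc
Atp6v0c, chr17:24169444-24169483, minus strand: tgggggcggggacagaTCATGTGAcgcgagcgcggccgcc
Grn, chr11:102430280-102430319, plus strand: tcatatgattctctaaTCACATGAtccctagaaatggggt
Ppt1, chr4:122836224-122836263, plus strand: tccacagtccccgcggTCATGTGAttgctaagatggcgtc
Tpp1, chr7:105752208-105752247, minus strand: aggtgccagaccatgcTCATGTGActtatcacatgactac

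The 11 members with an M-box or extended E-box had a median log2 fold change of 0.69 in SC-Mono against BM-Mono, with 9 above 0, and the 33 with neither a median of 0.06, with 20 above 0. From SC-Mono to SC-APC the medians were 0.05, with 6 of 11 above 0, and 0.21, with 21 of 33 above 0. The members that hold an element therefore lay on both sides of 0 between the spinal cord populations: Acp5, Grn and Tpp1 were above it, and Gla, Cln3 and Atp6v1a below it, with the values given further on.

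In level, the members together made up a similar share of each library. Their summed TPM was 14393 in BM-Mono, 13493 in SC-Mono and 14533 in SC-APC, which is 1.44%, 1.35% and 1.45% of all TPM. Psap, which encodes the precursor of the saposins that present sphingolipids to their hydrolases, was the most abundant member in every library, at 4658, 3586 and 4395 TPM, or 32.4%, 26.6% and 30.2% of the sum. The next most abundant in SC-APC were Atp6v0c, the proton-binding ring subunit of the pump, Laptm5, a lysosomal membrane protein of blood cells, Grn, which encodes progranulin, and Lamp1, a glycoprotein that lines the lysosomal membrane. The similar totals hid different movements of the groups. The 4 genes Tpp1, Grn, Acp2 and Acp5 summed to 703, 1088 and 1416 TPM, a ratio of 1.55 from BM-Mono to SC-Mono and of 1.3 from SC-Mono to SC-APC. The V0 sector went from 1398 to 2073 and then to 1891 TPM, and the V1 sector from 1498 to 1412 and 1241 TPM. In each sector 1 gene moved most: Atp6v0c was at 655, 1338 and 1244 TPM, and Atp6v1b2 at 413, 194 and 111 TPM. The sums therefore do not give the direction of the other subunits. From BM-Mono to SC-Mono, 6 of 8 V1 subunits had log2 fold changes above 0, with a median of 0.36, and 2 below. Lipid hydrolases and transfer proteins (6068, 4954 and 5725 TPM) and glycosidases and sulfatases (1076, 825 and 1078 TPM) were lowest in SC-Mono. The first of these sums is mostly Psap. Without Psap, the soluble proteins summed to 3189, 3282 and 3825 TPM and all members to 9734.5, 9907 and 10138 TPM, so that neither was lowest in SC-Mono. Membrane proteins summed to 3152, 2679 and 2720 TPM and the MiT/TFE factors to 112, 135 and 132 TPM.

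**Figure D1:**
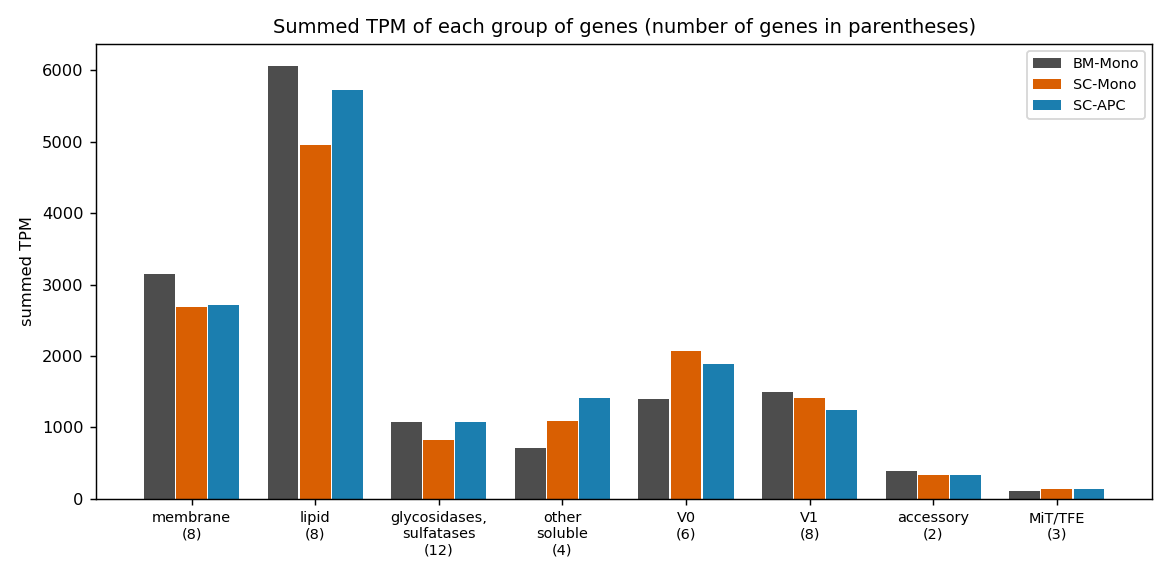
Summed TPM of each group of members (y axis, linear from 0) in BM-Mono, SC-Mono and SC-APC, 1 library each, with the number of genes under each group's name. The group of Tpp1, Grn, Acp2 and Acp5 grows from 703 to 1416 TPM, while the V1 sector goes from 1498 to 1241 TPM. Within the V1 sector, Atp6v1b2 alone goes from 413 to 111 TPM.

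**Figure D2:**
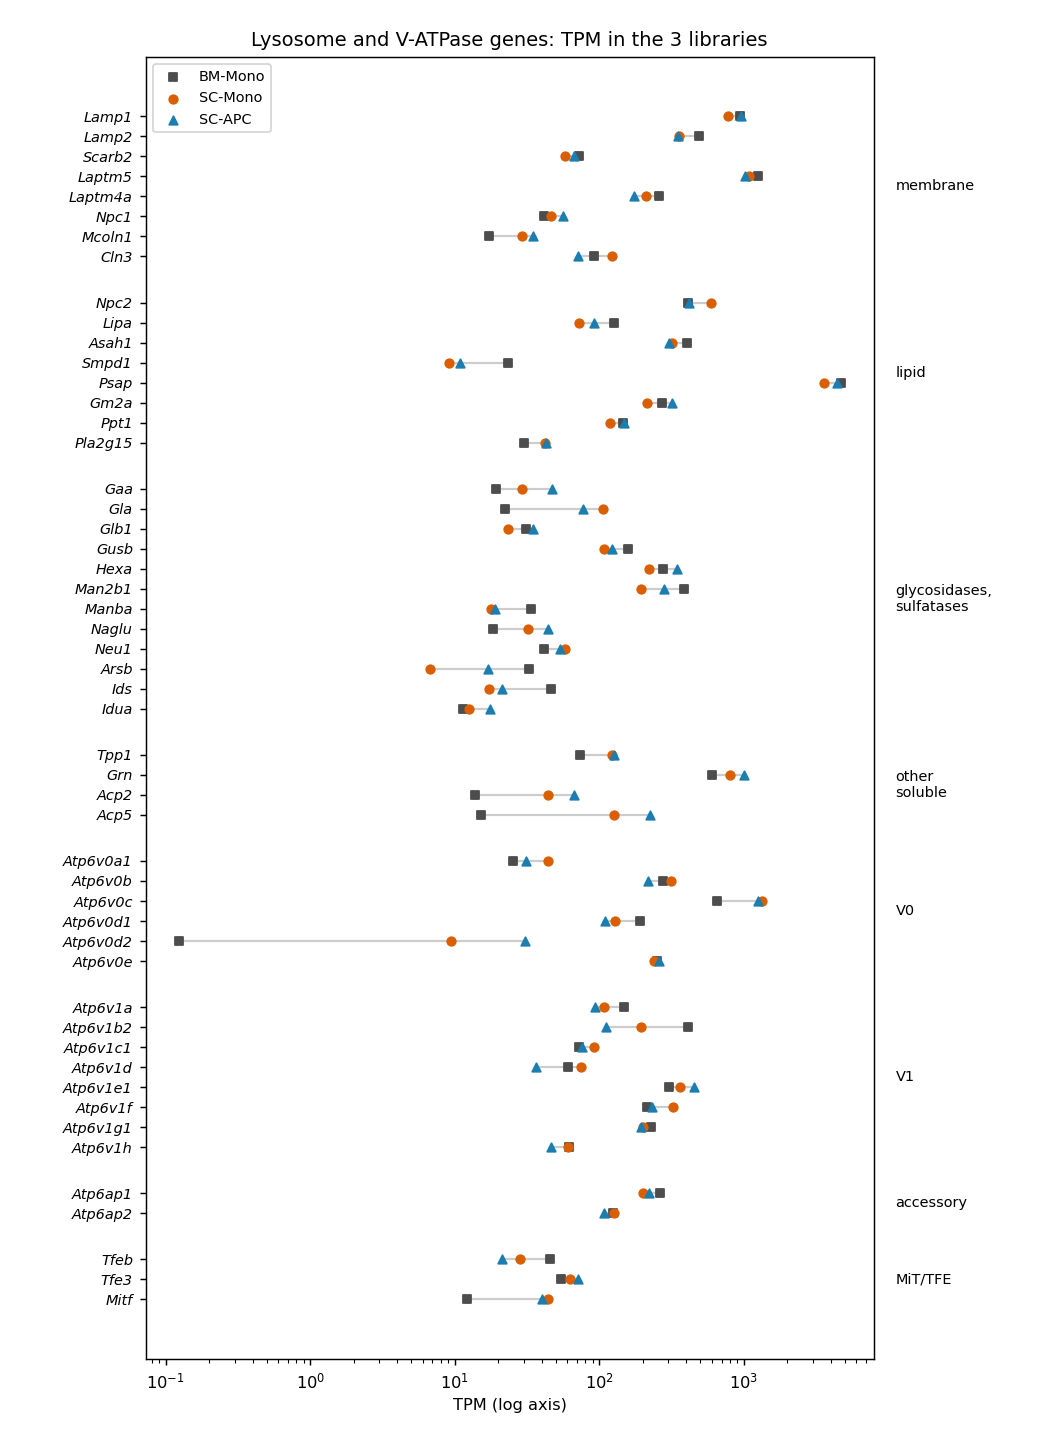
TPM of each of the 51 members (log axis) in the 3 libraries, grouped by role. Acp5, Acp2 and Atp6v0d2 are lowest in BM-Mono and highest in SC-APC, and Arsb is lowest in SC-Mono.

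The first comparison, SC-Mono against BM-Mono, asks how the lysosomal genes of monocytes differ between their source and the inflamed spinal cord. The tartrate-resistant phosphatase Acp5, the acid phosphatase Acp2, the glycosidases Gla and Naglu, the V0 subunits Atp6v0c and Atp6v0d2 and the transcription factor Mitf were called higher in SC-Mono, and the sulfatase Arsb was called lower. These 7 of 51 members are 13.7%, which is close to the 13.8% of all 10072 active genes called higher in this comparison. The 1 member called lower is 2.0% of them, against 10.7% of active genes called lower. Beyond a 1.5-fold change, 16 members were higher (31.4%, against 18.5% of active genes) and 6 were lower (11.8%, against 20.4%). The median log2 fold change of the members was 0.23, that of all active genes -0.15, and 39 of the 51 members lay above the latter. Values above 0 were found for 34 members (66.7%), against 42.3% of active genes. Of the 7 higher calls only that of Naglu ended under any other scaling, whereas Ids, Smpd1 and Atp6v1b2 were called lower in addition with total reads (-1.26, -1.20 and -1.14), as ratios of TPM and with all monocyte genes. The sign of the members' own median depended on the scaling and fell to -0.03 for ratios of TPM, with 25 members above 0, but their distance from the median of all genes was 0.33 to 0.38 under every scaling tried.

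**Figure D3:**
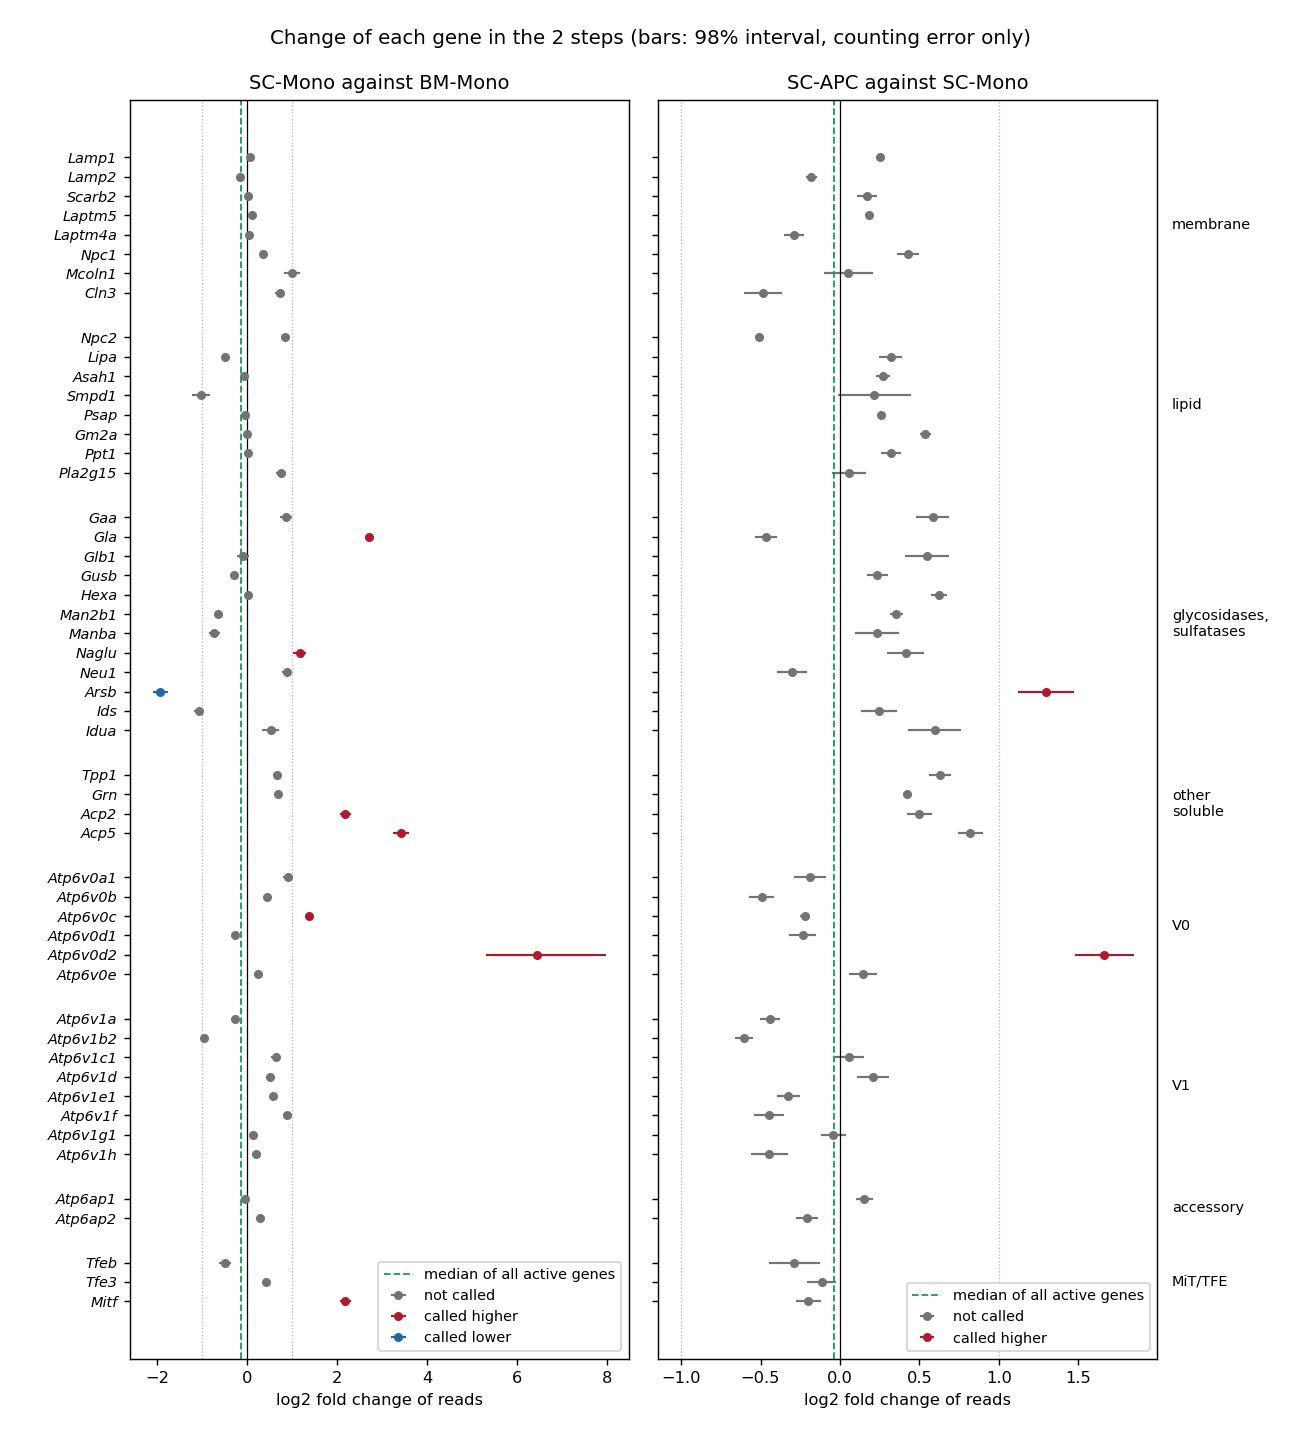
Log2 fold change of reads of each member from BM-Mono to SC-Mono (left) and from SC-Mono to SC-APC (right, on a narrower axis), with bars for the 98% interval of counting error, the median of all active genes as a dashed line and dotted lines at a 2-fold change. In the left panel 7 members are called higher and 1 lower, and in the right panel Arsb and Atp6v0d2 are called higher.

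The largest increase among soluble proteins was that of Acp5 (chr9:22126727-22135711, minus strand, GRCm38), an iron-containing phosphatase known as a marker of osteoclasts and activated macrophages. Its level was 15.2 TPM in BM-Mono, 126 in SC-Mono and 226 in SC-APC, so that each population stood above the one before it. The log2 fold change was 3.41 (98% interval 3.23 to 3.60) from BM-Mono to SC-Mono and 0.82 (0.74 to 0.90) from there to SC-APC. Acp2 (chr2:91202885-91214098, plus strand), the classical lysosomal acid phosphatase, had the same order at 13.8, 43.9 and 67.1 TPM. Its log2 fold changes were 2.18 (2.05 to 2.31) and 0.50 (0.42 to 0.58). Acp5 thus made up 52.4% of the TPM of the pair in BM-Mono (95% interval 49.4 to 55.4), 74.2% in SC-Mono and 77.1% in SC-APC. Exons of Acp2 share 652 bases with Ddb2 on the opposite strand, and the strand setting of the quantification is not given in the sources used here, but Ddb2 had only 66 to 79 reads per library. The osteoclast markers Calcr and Oscar were at 0 reads in all 3 libraries, while Ctsk was at 0.933, 10.1 and 24.6 TPM and Dcstamp at 0, 2.93 and 20.3 TPM. The 8 markers of this list summed to 56.5, 52.8 and 89.3 TPM. Of the 4 active from BM-Mono to SC-Mono, 2 had log2 fold changes above 0 and 2 below, the lowest at -3.20. The part of cells with these markers in the rise of Acp5 was not tested.

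The other 2 members of that group were not called in this comparison. Grn, whose product is cut into granulins in the lysosome, had a log2 fold change of 0.69 in the first comparison and 0.42 in the second, from levels of 600.5, 797 and 997 TPM. Tpp1, an exopeptidase that removes tripeptides, had values of 0.65 and 0.63, from levels of 73.9, 121 and 126 TPM.

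Enzymes that remove sugars and sulfate from glycans split in the first comparison, with 6 of 12 above 0 and 6 below. Gla (chrX:134588149-134601125, minus strand), the alpha-galactosidase that cleaves globotriaosylceramide, was at 22.4 TPM in BM-Mono, 106 in SC-Mono and 76.7 in SC-APC. It was higher in both spinal cord libraries than in the bone marrow and highest in SC-Mono, with log2 fold changes of 2.71 (2.60 to 2.82) and then -0.46 (-0.53 to -0.39). Naglu (chr11:101070012-101077672, plus strand), which removes N-acetylglucosamine from heparan sulfate, was at 18.5, 32.2 and 43.8 TPM. Its log2 fold change in the first comparison was 1.16 (1.02 to 1.31), just beyond the 2-fold bound, and this call did not hold with total reads as scaling (0.98), by effective length (1.05), as a ratio of TPM (0.77 with 1 TPM added) or with all genes of the monocyte libraries (0.92). Arsb (chr13:93771630-93943016, plus strand), the sulfatase of dermatan and chondroitin sulfate, went the other way at 32.5, 6.72 and 17.0 TPM. SC-Mono was the low population, with a log2 fold change of -1.94 (-2.10 to -1.77) against BM-Mono and 1.29 (1.12 to 1.47) from SC-Mono to SC-APC, and SC-APC did not reach the level of BM-Mono. Ids, the sulfatase of iduronate, had 46.2, 17.2 and 21.2 TPM. From BM-Mono to SC-Mono its value was -1.08 (-1.18 to -0.98), an interval that crosses the 2-fold bound, so that it was not called. The mannosidases Man2b1 and Manba had values of -0.66 and -0.73 and were lower beyond 1.5-fold. Gaa, the acid alpha-glucosidase of glycogen, and Neu1, the sialidase, had values of 0.86 and 0.87. Hexa, a hexosaminidase subunit, and Glb1, the beta-galactosidase, stayed within 0.10 of 0, at 0.01 and -0.09. As log2 ratios of TPM they were at -0.31 and -0.42.

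Among the V0 subunits of the pump, Atp6v0c and Atp6v0d2 were called higher. Atp6v0c (chr17:24163866-24169702, minus strand) was at 655 TPM in BM-Mono, 1338 in SC-Mono and 1244 in SC-APC, the most abundant pump subunit in each. Its log2 fold changes were 1.37 (1.33 to 1.40) and -0.22 (-0.25 to -0.19). Of the 31-base words in its transcripts, 11.9% also occur in the pseudogene Atp6v0c-ps2, which had 3 and 0 reads in the monocyte libraries. Atp6v0d2 (chr4:19876841-19922605, minus strand), the alternative d subunit known from osteoclasts and macrophages, was nearly absent from BM-Mono, with 6 reads or 0.123 TPM. It reached 9.44 TPM (414 reads) in SC-Mono and 30.7 TPM (1465 reads) in SC-APC, so that the 3 populations were far apart. The log2 fold changes were 6.44 (5.30 to 7.96) and 1.66 (1.48 to 1.85), the highest of any member in both comparisons, and the first of them rests on the 6 reads of BM-Mono. The ubiquitous d subunit, Atp6v0d1, had 192, 129 and 109 TPM. Atp6v0d2 therefore accounted for 0.0643% of d-subunit TPM in BM-Mono (95% interval 0.0268 to 0.132), 6.82% in SC-Mono (6.20 to 7.50) and 22% in SC-APC (21 to 23.1).

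The other V0 subunits were not called. The a subunit Atp6v0a1, with 25.4, 43.8 and 30.9 TPM, had a value of 0.90 (0.79 to 1.01) in the first comparison. Atp6v0b, another subunit of the ring, had a value of 0.44 and the small subunit Atp6v0e one of 0.23. Of the a isoforms outside the member list, Tcirg1, the a subunit of osteoclasts and immune cells, was called higher in SC-Mono, with 142, 331 and 186 TPM, its log2 fold change being 1.45 (1.40 to 1.51). It held 73.3% of the summed TPM of Atp6v0a1, Atp6v0a2 and Tcirg1 in BM-Mono, 83.0% in SC-Mono and 77.9% in SC-APC.

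Of the 8 V1 subunits none was called in the first comparison, and 6 had values above 0. Atp6v1b2, the nucleotide-binding B subunit of most tissues, was the exception in size, at 413 TPM in BM-Mono, 194 in SC-Mono and 111 in SC-APC. Each population stood below the one before it, with log2 fold changes of -0.96 (-1.0 to -0.92) and -0.60 (-0.66 to -0.55). Atp6v1a, the catalytic A subunit that forms the ATPase head with it, had values of -0.27 and -0.44 and was at 147, 108 and 93.4 TPM. Atp6v1f, Atp6v1c1, Atp6v1e1 and Atp6v1d, which build the stalks of the sector, had values of 0.89, 0.63, 0.57 and 0.51 in the first comparison. Atp6v1h, which regulates the ATPase, and Atp6v1g1 were at 0.20 and 0.12. Atp6v1g1 and Atp6v1f share 24.0% and 18.4% of their 31-base words with other annotated genes, so that their values are less certain. The V1 subunits differed in level by 6.77 times between the highest and the lowest in BM-Mono, 5.99 times in SC-Mono and 12.3 times in SC-APC, where the lowest was Atp6v1d, whose effective length was 2.45 times that in SC-Mono. The accessory proteins Atp6ap1 and Atp6ap2 changed little, with values of -0.05 and 0.29.

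**Figure D4:**
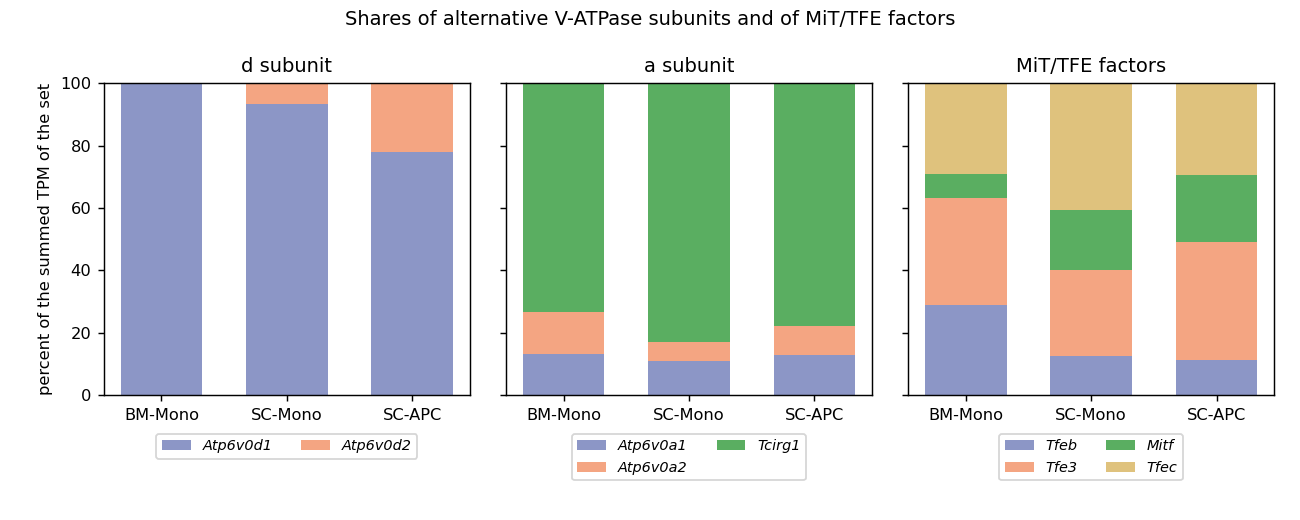
Percent of summed TPM (y axis, linear from 0) that each alternative d subunit, a subunit and MiT/TFE factor held in BM-Mono, SC-Mono and SC-APC. Atp6v0d2 goes from 0.0643% to 22% of the d subunits, and Mitf from 7.63% to 21.6% of the factors.

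Membrane proteins and lipid-handling proteins included no called gene in either comparison of neighbouring populations. Lamp1 (939, 781 and 948 TPM), Lamp2 (487, 356 and 350 TPM) and Laptm5 (1248, 1078 and 1019 TPM), the abundant structural members, had log2 fold changes of 0.06, -0.16 and 0.11 in the first comparison. As log2 ratios of TPM these were -0.27, -0.45 and -0.21, so that the direction of Lamp1 and Laptm5 depended on the scaling. The calcium channel Mcoln1 was the most changed membrane protein, at 17.3, 29.2 and 34.9 TPM with a value of 0.99 (0.82 to 1.17). Cln3, whose exons share 442 bases with Apobr on the opposite strand, was at 91.1, 122 and 71.3 TPM with values of 0.73 and -0.48. Apobr itself had 8931, 3755 and 4855 reads. Npc1 and Npc2, which together pass cholesterol out of the lysosome, were at 41.3, 46.0 and 55.9 TPM and at 412, 595 and 415 TPM. Npc1 had values of 0.35 and 0.43, and Npc2, the soluble partner, 0.83 and -0.51, so that the pair diverged from SC-Mono to SC-APC. Smpd1, the acid sphingomyelinase, was at 23.2, 9.09 and 10.8 TPM with a value of -1.02 (-1.22 to -0.82) in the first comparison, and Lipa, the acid lipase of cholesteryl esters, was at 127, 71.8 and 91.5 TPM with -0.49. The phospholipase Pla2g15 had a value of 0.75. Psap, Gm2a (the activator of ganglioside hydrolysis), Ppt1 and Asah1 (the acid ceramidase) stayed between -0.08 and 0.01. As log2 ratios of TPM these 4 lay between -0.38 and -0.30.

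Among the transcription factors, Mitf (chr6:97807052-98021349, plus strand) was called higher in SC-Mono. Its level was 12.1 TPM in BM-Mono, 44.1 in SC-Mono and 40.4 in SC-APC, and its log2 fold changes were 2.18 (2.06 to 2.30) and -0.20 (-0.28 to -0.12). Tfeb was at 45.8, 28.2 and 21.1 TPM, with values of -0.49 (-0.62 to -0.35) and -0.29 (-0.45 to -0.13), and Tfe3 was at 54.2, 62.8 and 70.7 TPM, with 0.41 and -0.11. By effective length, the second value of Tfe3 was 0.26. Tfec, the family member expressed in myeloid cells and not in the member list, was called higher in SC-Mono at 46.2, 92.0 and 54.8 TPM (1.29, 98% interval 1.19 to 1.40). Of the summed TPM of the 4 factors, Tfeb held 29.0% in BM-Mono (95% interval 27.9 to 30.1), 12.4% in SC-Mono and 11.3% in SC-APC. Mitf held 7.63% (7.19 to 8.10), 19.4% and 21.6%. These are transcript shares, and these factors are also controlled by where the protein is in the cell, which RNA-Seq does not measure.

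The second comparison, SC-APC against SC-Mono, follows the cells from Ly6Chi monocytes to Ly6Clow APCs within the spinal cord. Arsb and Atp6v0d2 were called higher, and no member was called lower. The 2 of 51 members are 3.9%, against 1.93% of all 9734 active genes called higher, and 1.70% of active genes were called lower. Beyond a 1.5-fold change, Acp5 joined them, giving 3 members higher and 0 lower, against 4.28% and 5.77% of active genes. The median log2 fold change of the members was 0.17, that of all active genes -0.04, and 31 members (60.8%) were above 0, against 46.5% of active genes.

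Within the members, the contents of the lysosome and its pump moved apart. Of the 24 soluble proteins, 21 had values above 0 with a median of 0.34, the exceptions being Npc2, Gla and Neu1. Of the 16 V-ATPase members, 5 were above 0 and the median was -0.22. The 2 sets were not tested against each other, since each is a set of genes in a single pair of libraries. Most of these shifts are small: the log2 fold change lay within 0.58 of 0 for 19 of the 24 soluble proteins and for 14 of the 16 V-ATPase members. Among the soluble proteins, Tpp1 (0.63), Hexa (0.62), Idua, the iduronidase (0.60), Gaa (0.58), Glb1 (0.55) and Gm2a (0.54) followed Arsb and Acp5. Among the V-ATPase members, Atp6v1b2 (-0.60), Atp6v0b (-0.49), Atp6v1f (-0.45), Atp6v1h (-0.45) and Atp6v1a (-0.44) had the lowest values, while Atp6v0d2, at 1.66, was the subunit furthest above 0. Summed TPM moved the same way, with the soluble proteins at 6868 TPM in SC-Mono and 8220 in SC-APC and the V-ATPase members at 3811 and 3461. Much of the soluble sum is Psap, and without it the soluble proteins were at 3282 and 3825 TPM. All 3 MiT/TFE members had values below 0 from reads, but Tfe3 was above 0 by effective length (0.26). The 9 microglia markers were also higher in SC-APC, with 8 of the 9 called and the lowest at 1.05, in the same direction as the soluble proteins, and their part in this difference was not tested.

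The effective length that turns reads into TPM differed by over 1.5 times between these libraries for 3 members. Atp6v1d had a log2 fold change of 0.21 from reads and of -0.95 from reads per effective length, Atp6v1e1 of -0.32 and 0.40, and Tpp1 of 0.63 and 0.14. The sign of Atp6v1d and Atp6v1e1 thus depended on the length used. So did that of Tfe3 (-0.11 and 0.26), Lamp2 (-0.18 and 0.06), Atp6v1c1 (0.06 and -0.19) and Atp6v1g1 (-0.04 and 0.05). The counts above 0 by length were again 21 of 24 soluble proteins and 5 of 16 V-ATPase members, with medians of 0.41 and -0.15. Without Atp6v1d and Atp6v1e1, 4 of 14 V-ATPase members were above 0 by either measure.

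**Figure D5:**
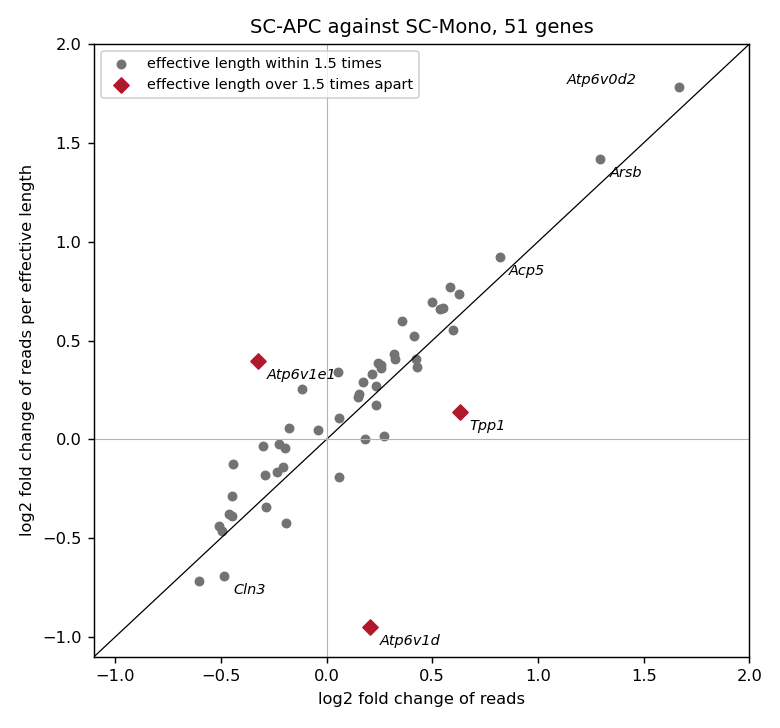
Log2 fold change of reads (x axis) against that of reads per effective length (y axis) for the 51 members, SC-APC against SC-Mono, with the line of equality. Atp6v1d, Atp6v1e1 and Tpp1, whose effective lengths differ by over 1.5 times, lie far from the line, whereas Arsb, Atp6v0d2 and Acp5 lie close to it.

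From end to end, SC-APC against BM-Mono, 10 members were called higher (19.6%, against 14.0% of 10190 active genes) and 1 was called lower (2.0%, against 11.8%). Beyond a 1.5-fold change, 18 members were higher (35.3%, against 18.7%) and 5 lower (9.8%, against 22.2%). To the 7 called higher in SC-Mono were added Gaa (19.2 to 46.9 TPM, log2 fold change 1.44), Tpp1 (73.9 to 126 TPM, 1.28) and Grn (600.5 to 997 TPM, 1.12). The member called lower was Atp6v1b2, at -1.56 (-1.61 to -1.52). Arsb had a value of -0.64 (-0.75 to -0.53). All 4 of Tpp1, Grn, Acp2 and Acp5 were called higher, with a median of 1.98, but Grn was not called with total reads (0.98), and neither Grn (0.73) nor Tpp1 (0.76) as a ratio of TPM with 1 TPM added. Atp6v0c, at 1.14, was likewise not called with total reads (1.01) or as a ratio of TPM (0.92), and the other 7 higher calls held under every scaling tried. The 8 membrane proteins had a median of 0.26, none was called, and Mcoln1, at 1.04, was again the furthest from 0. The median over the members was 0.31, against -0.17 for all active genes, and 36 members (70.6%) were above 0, against 41.2%. This excess over 0 depended on the scaling, with a median of 0.17 and 33 members above 0 for total reads and of 0.01 and 27 members for ratios of TPM, while the distance from the median of all genes was 0.48 to 0.51.

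Across the 3 populations, 19 members had log2 fold changes above 0 in both comparisons and 5 had them below 0 in both (Lamp2, Atp6v0d1, Atp6v1a, Atp6v1b2 and Tfeb). In 15 members the value was above 0 and then below 0, and in 12 it was below and then above. Both comparisons use the SC-Mono library, so that a deviation of this library alone would give the latter patterns. By TPM, 20 members were highest in BM-Mono, 12 in SC-Mono and 19 in SC-APC.

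Other genes of the pathway, listed by function, were read beside the members. Their counts are to be read against the shares of all active genes. These were 13.8% called higher and 10.7% lower in SC-Mono against BM-Mono, and 1.93% and 1.70% in SC-APC against SC-Mono. Of 19 further hydrolases, 18 were active, and in the first comparison 2 were called higher and 1 lower. Pld3, a nuclease of the lysosome, was at 16.5, 72.0 and 151 TPM (log2 fold change 2.64). Sgsh, the sulfamidase of heparan sulfate, was lower at 25.1, 8.37 and 11.2 TPM (-1.28). From SC-Mono to SC-APC none of the 18 was called, 13 had values above 0 and the median was 0.23, close to that of the members. Naaa, an amidase and the most abundant of them in SC-APC, was at 434, 340 and 305 TPM.

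Of 23 further membrane proteins and transporters, 21 were active, with 6 called higher and 1 lower in SC-Mono. The highest log2 fold changes were those of the tetraspanin Cd63 (5.19, 126 and 275 TPM; 4.90), the channel Mcoln2 (0.358, 4.66 and 4.90 TPM; 4.13), the peptide transporter Slc15a3 (59.4, 327 and 247 TPM; 2.79) and the chloride-proton exchanger Clcn7 (37.5, 118 and 80.8 TPM; 1.80). Hgsnat, the acetyltransferase that acts before Naglu in heparan sulfate breakdown, was lower (145, 19.9 and 20.7 TPM; -2.59). Naglu, Sgsh and Hgsnat, which all act in this 1 breakdown route, therefore did not share a direction in SC-Mono. Naglu was called higher, under the scaling used here and not under those named above, and Sgsh and Hgsnat were called lower. These genes do not describe the whole route. From SC-Mono to SC-APC only Cd63 of these 21 genes was called, at 1.09 (1.0 to 1.18). Cd68, the most abundant of them in SC-APC, was at 489, 773 and 1343 TPM.

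Around the pump, 4 of the 9 other subunit isoforms were active in the first comparison, and besides Tcirg1 only Atp6v0e2 was called higher (0.344, 3.63 and 0.588 TPM), on 4, 43 and 18 reads. Of 7 assembly factors, Dmxl2 was called higher in SC-Mono (8.92, 30.4 and 20.3 TPM; log2 fold change 1.82) and Rogdi in SC-APC (30.0, 19.5 and 39.7 TPM; 1.33 against SC-Mono). Both belong to the RAVE-like complex that assembles V1 onto V0. Of 21 genes of mTORC1 and of the control of MiT/TFE factors, 19 were active. Fnip2, a partner of folliculin, was called higher in SC-Mono along with Tfec (20.3, 39.1 and 34.1 TPM; 1.15), and the GTPase Rraga was called lower in SC-APC against SC-Mono (81.2, 129 and 57.9 TPM; -1.17). As log2 ratios of TPM, the values of Fnip2 (0.94) and Tfec (0.99) stayed below a 2-fold change. Lamtor2, a subunit of the Ragulator that anchors these GTPases and the most abundant of the list in SC-APC, was at 244, 171 and 212 TPM, and was not called.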

How the data were processed

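RNA of 3 sorted and pooled cell populations was sequenced, 1 library each. The authors estimated expression with Salmon 0.14.1 (version and the mm10 build per the submitters' processing notes) on GENCODE transcripts and deposited, per gene, TPM, estimated counts and effective lengths. The TPM, as made by the authors, correct for effective length and depth. The authors' estimated counts are unnormalized and were rounded here to whole reads. The strand setting is not given in the sources used here.

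The 22238 genes common to all libraries were analysed. They held 84.9% of the TPM of BM-Mono, 85.3% of that of SC-Mono and 100.0% of that of SC-APC, and 32115707, 26116588 and 28209327 reads. TPM was rescaled over these genes. Gene models were those of GENCODE M21 (GRCm38), which shares identifier and version for 99.0% of the genes, and promoters were those of RefSeq. Fold changes were medians of a posterior of the ratio of 2 gamma distributions (reads with 1 added, divided by median-of-ratios size factors), after the definition of GFold, which was not itself used. A gene was called where percentiles 1 to 99 lay beyond 2-fold and TPM exceeded 3 in 1 of the 2 libraries, and background shares are over all genes above that TPM. The calculation was tested on simulated counts with counting error only, which cannot show how it behaves when libraries vary. TPM shares have 95% intervals from a gamma posterior of a gene's reads against the summed reads of the others in its set, rescaled to TPM.

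The members, their groups and the pathway and marker lists were chosen with earlier results of these data known. Any member could be named. Of a pathway list, the most abundant gene in SC-APC and up to 4 called genes per direction and comparison were named, except 1 gene that is not reported here. Alternatives were TMM factors or total reads, reads per effective length, an assumed coefficient of variation of 0.2 or 0.4 between libraries, a prior of 0.5 reads, a TPM minimum of 4 or none, a plain 2-fold change, a 1.5-fold bound, ratios of TPM plus 1 or 0.1, genes without ribosomal protein, mitochondrial and Gm-numbered genes, and all genes of the monocyte libraries. Calculations used scipy 1.17.1, numpy 2.4.6 and pandas 2.3.3 in Python 3.11.15, figures matplotlib 3.10.9, and TMM factors edgeR 4.0.16 in R 4.3.3.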

Additional observations from a re-analysis of the deposited data

How the results depend on the processing

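No paired analysis was possible because each population is 1 library, and for the same reason no library could be left out. The sign of the log2 fold change was the same under every alternative for 42 of 51 members from BM-Mono to SC-Mono, 43 from SC-Mono to SC-APC and 42 from BM-Mono to SC-APC. Other scalings moved the median of all active genes from BM-Mono to SC-Mono by -0.18 (total reads), -0.22 and -0.24 (TPM plus 1 and 0.1) and -0.20 (all genes of the monocyte libraries). The members' median of 0.23 moved with it, to 0.048 with total reads, -0.033 with either TPM ratio and -0.015 with all monocyte genes, and members minus all genes stayed at 0.33 to 0.38. From BM-Mono to SC-APC the median of 0.31 became 0.17 with total reads and 0.013 with either TPM ratio.

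For SC-Mono against BM-Mono, the 7 members called higher became 2 with an assumed coefficient of variation of 0.4 and 16 at 1.5-fold. The 1 called lower became 0 with either assumed variation, 2 by effective length, 3 by a plain 2-fold change, 4 with total reads, either TPM ratio or all monocyte genes, and 6 at 1.5-fold. For SC-APC against SC-Mono, the 2 called higher became 0 with either assumed variation, and the 0 called lower became 1 with either TPM ratio. For SC-APC against BM-Mono, the 10 called higher became 5 and 2 with a variation of 0.2 and 0.4 and 18 at 1.5-fold, and the 1 called lower became 0 with either variation, 5 at 1.5-fold and 4 with either TPM ratio. The cause of these differences was not tested. Depth limits single members little, apart from Atp6v0d2 in BM-Mono, but the spread between animals or sorts was not measured.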

Other observations

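Of 27 genes that deliver proteins and vesicles to the lysosome, 26 were active, and from BM-Mono to SC-Mono 2 were called higher and 2 lower. Of all active genes, 13.8% were called higher and 10.7% lower in this comparison. Igf2r, the large mannose 6-phosphate receptor, was at 0.656 TPM in BM-Mono, 18.3 in SC-Mono and 21.3 in SC-APC, and its log2 fold change in SC-Mono was 5.07 (98% interval 4.77 to 5.39). Sort1, the sorting receptor sortilin, went the other way with 130, 14.0 and 18.1 TPM and a value of -2.88 (-2.96 to -2.79). Vps18, a core subunit of the HOPS and CORVET tethers, was called higher (17.2, 38.2 and 29.2 TPM, log2 fold change 1.47) and the adaptor subunit Ap3m1 lower (89, 31.7 and 31.9 TPM, log2 fold change -1.25). Rab7, the GTPase of late endosomes and the most abundant of the list in SC-APC, was at 408, 430 and 547 TPM and was not called. From SC-Mono to SC-APC none of the 26 was called, and 18 had values above 0, with a median of 0.06.

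All 18 autophagy genes listed were active. In SC-Mono against BM-Mono 2 were called higher and 0 lower, against 13.8% and 10.7% of all active genes. Sqstm1, the cargo receptor p62, was called higher in SC-Mono at 130, 536 and 346 TPM (log2 fold change 2.17, 98% interval 2.11 to 2.23), as was Gabarapl1, which coats autophagosomes, at 26.9, 73.4 and 70.3 TPM (log2 fold change 1.60, 98% interval 1.46 to 1.74). Gabarap, the most abundant in SC-APC, was at 576, 840 and 960 TPM and was not called. From SC-Mono to SC-APC none was called, 5 of 18 had values above 0, and the median was -0.27, against -0.04 for all active genes.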
